A study of Mus musculus with 12 samples.

Results

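The genes described here are 10 transcription factors that build and maintain the heart chambers: the GATA zinc finger factors Gata4 and Gata6, the homeodomain factor Nkx2-5, the T-box factors Tbx5 and Tbx20, the basic helix-loop-helix factors Hand1 and Hand2, the Iroquois factor Irx4, and the MADS-box factors Mef2a and Mef2c. They were chosen as the rows with these symbols among 33641 genes listed in every sample, and all 10 were found. In the embryo these factors act together: GATA4, NKX2-5, TBX5 and MEF2C bind neighbouring sites and bind each other, Hand2 is needed for the right ventricle, Hand1 marks the left ventricle of the embryo, and Irx4 holds cells to a ventricular programme. Most of them stay expressed in adult cardiomyocytes.

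The samples were LV and RV (left and right ventricle) of mice in which the coding sequence of phospholamban (PLN), the small membrane protein that restrains the sarcoplasmic reticulum calcium pump SERCA2a, had been replaced by the human one. WT-PLN mice carried the human wild-type sequence, so they were humanised controls and not unmodified mice, and R14del-PLN mice were heterozygous, with 1 copy that lacked arginine 14, a deletion found in families with arrhythmogenic cardiomyopathy. There were 3 samples in each of 4 groups: LV WT-PLN, RV WT-PLN, LV R14del-PLN and RV R14del-PLN. The labels give C57BL/6J mice 12 to 14 weeks of age, while the methods describe a hybrid line from 129/Sv-CP; C57Bl/6J chimeras crossed to Sox2-Cre, a driver active in the whole early embryo, and male animals. The labels call the mutant samples knock-outs by title, but give R14del-PLN as genotype. The file of RV R14del-PLN replicate 3 names a different sequencing run from the files of all other samples, so this run and the sample cannot be told apart. No label says that samples came from separate animals, so p-values measure only the spread between these samples.

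Levels are in TPM, a measure of transcript abundance scaled for gene length in which each sample sums to the same fixed total, so no read depth is known and a value of 0 is described only as listed at 0. Pln itself lay between 1559 and 1963 TPM in the 12 samples, and these gene-level values cannot show the deletion. Mitochondrially encoded transcripts took 44.0 to 47.3% of TPM in LV WT-PLN, 48.7 to 52.7% in RV WT-PLN, 37.3 to 51.2% in LV R14del-PLN and 51.1 to 54.5% in RV R14del-PLN, and the lowest share was that of LV R14del-PLN replicate 3. The summed Y-linked genes stood at 0.284 and 0.250 TPM in LV and RV WT-PLN replicate 1 and between 43.5 and 63.7 TPM in the other 10 samples, against the description of the mice as male, so the genotype differences of the factors are also given without both WT-PLN replicate 1 samples. Ventricular cardiomyocyte genes (6 genes, Irx4 among them) summed to 21977 to 34492 TPM, which fits the labelled tissue, and no cell marker was at 0 in all samples. Over the 12 samples the summed atrial markers ran from 76.7 to 1379 TPM, those of smooth muscle and pericytes from 151 to 381, leukocytes from 56.5 to 125, red cells from 956 to 2316, the conduction system from 7.16 to 17.0 and adipocytes from 2.32 to 18.7 TPM. In whole ventricle, fewer cells of a type and less RNA per cell cannot be told apart.

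The 10 factors spanned a wide range of levels, and 9 of them were present in every sample. By mean TPM over the 12 samples, which is scaled per length, the order was Mef2a (35.3 TPM), Gata4 (33.1), Nkx2-5 (23.2), Hand2 (20.3), Mef2c (17.3), Gata6 (14.9), Tbx20 (10.5), Irx4 (8.77), Tbx5 (7.81) and Hand1 (0.00304). Several neighbours in this order were not separated. Mef2a stood above Gata4 in 6 of 12 samples and Hand2 stood above Mef2c in 6 of 12, whereas Gata4 stood above Nkx2-5 and Gata6 above Tbx20 in 12 of 12. Hand2 varied most among the 9, with its highest sample 3.41 times its lowest, followed by Irx4 at 2.30, Mef2c at 2.25 and Tbx20 at 2.24. Nkx2-5 varied least, at 1.56.

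**Figure D1:**
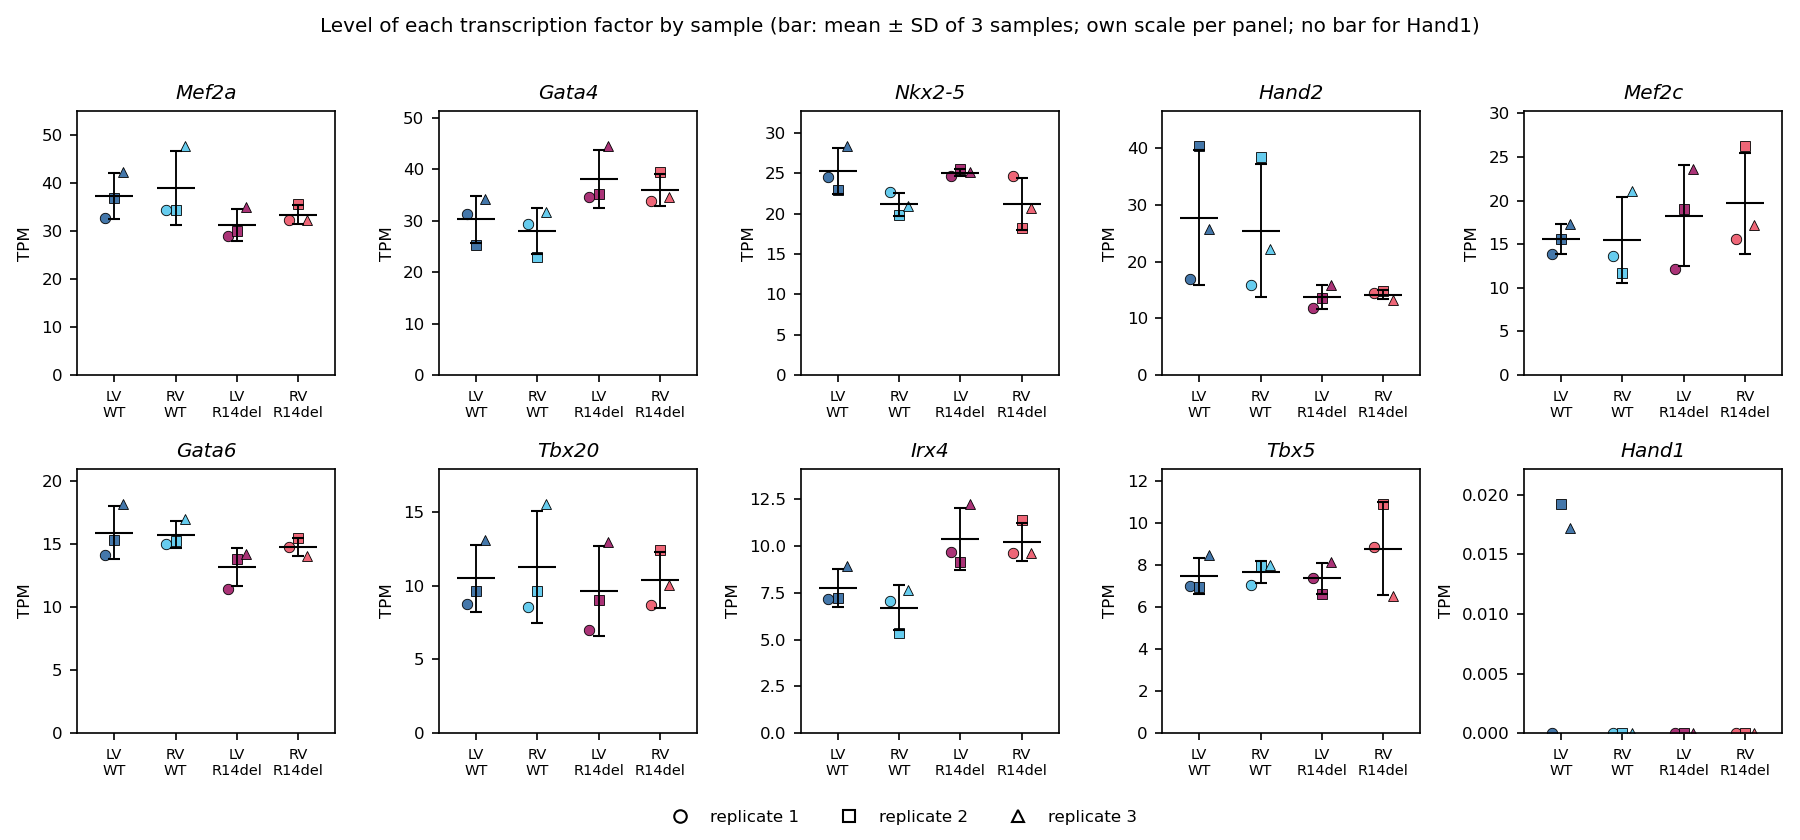
Level of each of the 10 factors in TPM (y axis, a separate scale from 0 for each gene) in the 12 samples by group (x axis), with the replicate number as symbol and the mean ± SD of 3 samples as bars except for Hand1. Irx4 sat higher in all 6 R14del-PLN samples (9.16 to 12.3 TPM) than in all 6 WT-PLN samples (5.35 to 8.94 TPM), and WT-PLN replicate 2 had the highest Hand2 level in each ventricle.

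A gene was called when its adjusted p was at most 0.05 and its fold at least 1.5. The test was limma on log2(TPM + 1), with Benjamini-Hochberg adjustment over 12526 genes, those whose mean over all samples reached 0.5 TPM. Differences are given on this log2 scale, which understates the change of low genes. Hand1 was below the limit and was not tested. None of the 9 tested factors was called in any comparison. The share of all tested genes called was 0% for RV against LV in WT-PLN, 0% for RV against LV in R14del-PLN, 0.263% for RV against LV averaged over genotypes, 0.519% for R14del-PLN against WT-PLN in LV and 0.271% in RV. At an unadjusted p under 0.05, 0 and 0 factors passed for RV against LV in each genotype, 1 (Nkx2-5) in the averaged comparison, 2 (Hand2 and Irx4) between genotypes in LV and 3 (Gata4, Hand2 and Irx4) in RV, where 14.5%, 6.57%, 21.5%, 9.60% and 6.22% of all tested genes passed.

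Between genotypes, the ranges of 3 against 3 samples did not overlap for Gata4, Hand2 and Irx4, and this held in each ventricle. Among all tested genes, 11.0% had ranges that did not overlap in LV and 11.0% in RV. Gata4 and Irx4 were the higher ones in R14del-PLN, where 2.48% of tested genes in LV and 5.19% in RV were higher without overlap, and Hand2 was the lower one, as were 8.47% and 5.79% of tested genes. LV and RV samples with one number may come from one heart, so the ventricles are not independent samples of the genotype. The median difference of the 9 factors was -0.02 in LV and -0.0045 in RV, beside -0.09 and -0.0034 over all tested genes. The factors differed in both directions, with 3 positive and 6 negative differences in LV and 4 and 5 in RV.

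**Figure D2:**
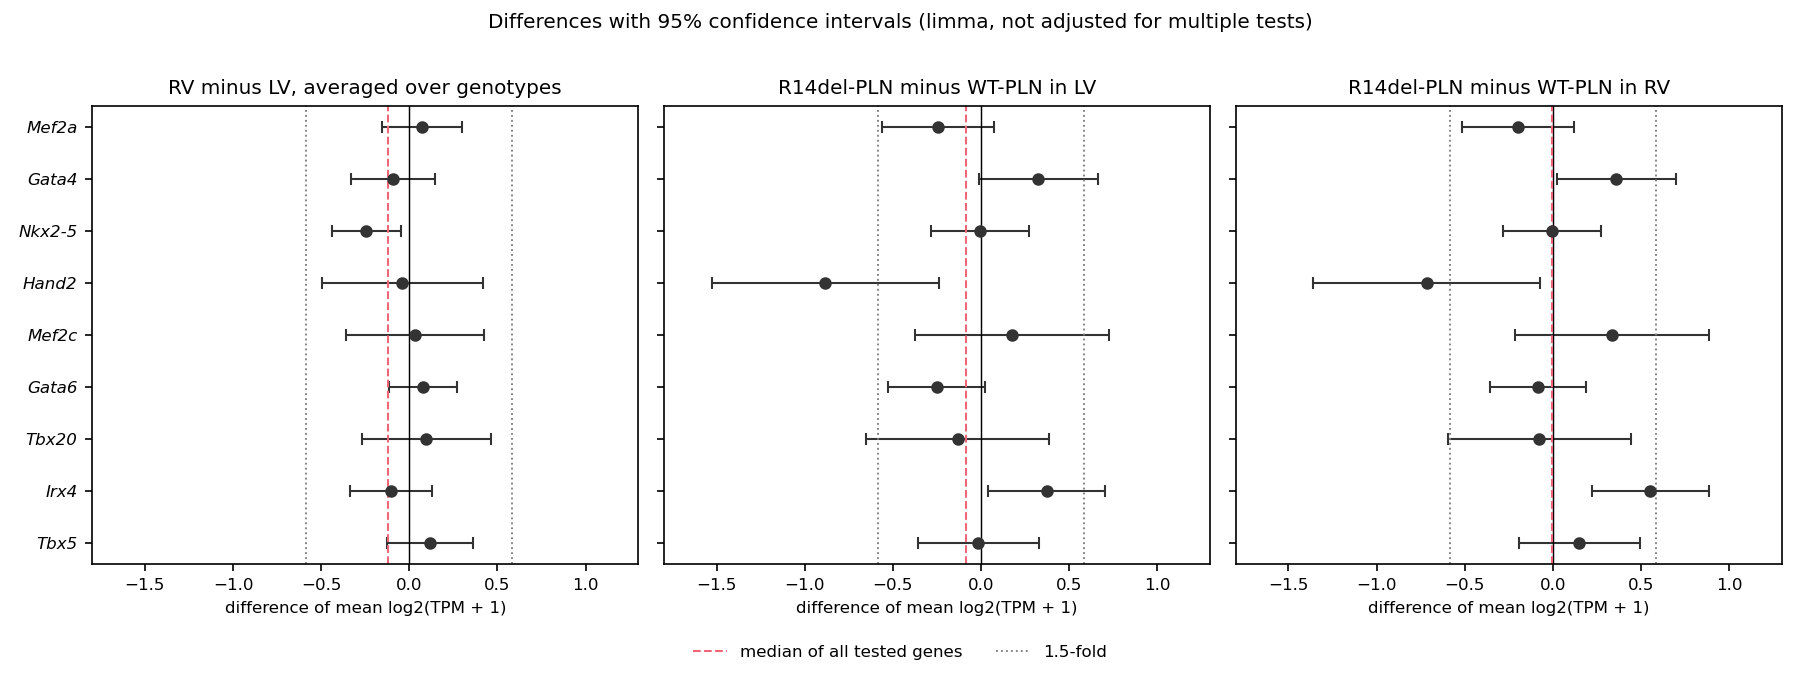
Difference of mean log2(TPM + 1) (x axis) for the 9 tested factors (y axis) in 3 comparisons, with unadjusted 95% confidence intervals from limma, the median of all tested genes as a dashed line and the 1.5-fold limits as dotted lines. Hand2 lay lowest and Irx4 highest of the 9 in each genotype comparison, and on the deposited TPM scale the 9 factors lay between -0.24 and 0.12 for RV minus LV.

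Irx4 was the only factor whose 6 samples of each genotype did not overlap on the deposited scale, although Hand2 had the larger difference. Irx4 represses atrial genes in ventricular muscle and lies on chromosome 13 (73260479 to 73269608, plus strand, GRCm38). Its level was 7.15, 7.20 and 8.94 TPM in LV WT-PLN, 7.06, 5.35 and 7.67 TPM in RV WT-PLN, 9.70, 9.16 and 12.3 TPM in LV R14del-PLN, and 9.62, 11.4 and 9.65 TPM in RV R14del-PLN. All 6 R14del-PLN samples were above all 6 WT-PLN samples, a pattern found in 0.687% of tested genes in this direction (1.88% in either direction). The group means were 10.4 ± 1.67 against 7.76 ± 1.02 TPM (SD, n = 3) in LV and 10.2 ± 1.02 against 6.69 ± 1.20 TPM in RV. The log2 difference was 0.37 (SE 0.15, 95% confidence interval 0.04 to 0.71, adjusted p = 0.449) in LV and 0.55 (SE 0.15, 0.22 to 0.89, adjusted p = 0.256) in RV, so neither passed the test.

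Whether Irx4 was called depended on how samples were scaled. The highest Irx4 value was that of LV R14del-PLN replicate 3, the sample with the lowest mitochondrial share, and without that sample the LV difference of Irx4 was 0.26. With the mitochondrially encoded genes removed and the rest rescaled to the same total, the RV difference of Irx4 was 0.63 with an adjusted p of 0.0478, which met the call, and the LV difference of Irx4 was 0.41 (adjusted p = 0.166), which did not. On that scale Irx4 lay between 18.5 and 23.3 TPM in the R14del-PLN samples and between 11.0 and 16.0 TPM in the WT-PLN samples. Under quantile normalization Irx4 had adjusted p of 0.0413 in LV and 0.0237 in RV, and with upper quartiles set equal 0.0441 and 0.0199, but at folds under 1.5. Without both WT-PLN replicate 1 samples the Irx4 differences were 0.32 (adjusted p = 0.461) in LV and 0.59 (adjusted p = 0.303) in RV. The lowest Irx4 value was that of RV WT-PLN replicate 2 (5.35 TPM). Without both WT-PLN replicate 2 samples the Irx4 differences were 0.33 (adjusted p = 0.916) in LV and 0.42 in RV. Neither passed the threshold.

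The bases just before the Irx4 start are shown because Irx4 was the only factor that separated the 6 samples of each genotype on the deposited scale, next to those of Hand2, which differed in the other direction. The sequences are from RefSeq on GRCm38.p6, 5' to 3' on the plus strand, in which all 250 bases of the Hand2 window and 232 of the Irx4 window are shown. The last 18 bases of the Irx4 window lie within the annotated gene and were left out. Capitals mark matches, on either strand, to 6 short motifs. The GATA motif was searched as AGATAA. The NKX2-5 motif was searched as AAGTG and the T-box motif as AGGTGT. The E-box, which HAND factors bind with their partners, was searched as CANNTG. The core promoter box was searched as TATAAA. The MEF2 motif was searched as CTA, any 4 letters, then TAG.
Irx4 chr13:73260247-73260478: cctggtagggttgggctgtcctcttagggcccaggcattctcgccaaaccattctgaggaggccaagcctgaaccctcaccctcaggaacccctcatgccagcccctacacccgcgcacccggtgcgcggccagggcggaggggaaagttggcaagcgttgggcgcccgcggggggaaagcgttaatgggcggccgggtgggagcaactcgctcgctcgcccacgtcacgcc
Hand2 chr8:57320733-57320982: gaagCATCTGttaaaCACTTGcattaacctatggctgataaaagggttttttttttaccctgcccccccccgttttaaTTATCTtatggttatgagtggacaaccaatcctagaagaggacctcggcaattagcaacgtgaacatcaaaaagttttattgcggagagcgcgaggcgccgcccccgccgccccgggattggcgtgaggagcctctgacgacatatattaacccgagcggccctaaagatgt
The Irx4 window held no match to any of the 6 motifs, with a GC content of 68.1% over the bases shown. This was not particular to Irx4. The windows of Tbx20 (GC content 68.8%) and Mef2a (61.6%), which overlapped between genotypes, held no match either, and those of Nkx2-5 and Mef2c held matches. The Hand2 window held a GATA match whose first base lies 172 bases before the start and E-box matches at 235 and 246 bases before it, and the nearer E-box overlaps an NKX2-5 match. Its GC content was 49.2%, beside a median of 52.4% over 32851 windows of the same length. Of those windows, 9.99% held AGATAA, 40.7% AAGTG, 11.8% AGGTGT, 3.20% the MEF2 motif, 66.2% CANNTG and 12.4% TATAAA. A match is a run of letters and not a measured binding site, and no match says only that these letters are not in the window.

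Hand2 had the lowest difference of the 9 factors between genotypes, and its WT-PLN samples were also the most spread. Hand2 is a basic helix-loop-helix factor of the right ventricle and outflow tract that is also expressed outside the muscle, and it lies on chromosome 8 (57320983 to 57324633, plus strand). It overlaps Hand2os1 on the opposite strand, a transcript with no row in the tables used here, and whether reads were counted by strand is not given in the sources used here, so reads of the pair cannot be told apart. Its level was 16.9, 40.5 and 25.8 TPM in LV WT-PLN and 15.9, 38.4 and 22.2 TPM in RV WT-PLN. In R14del-PLN it was 11.9, 13.6 and 16.0 TPM in LV and 14.4, 14.8 and 13.2 TPM in RV.

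The WT-PLN samples of Hand2 kept one order in both ventricles, with replicate 2 highest and replicate 1 lowest, so the spread in WT-PLN followed the replicate number and not the ventricle. The R14del-PLN samples lay close together and, within a ventricle, below all WT-PLN samples. Across ventricles only RV WT-PLN replicate 1 (15.9 TPM) and LV R14del-PLN replicate 3 (16.0 TPM) crossed. The log2 difference of Hand2 was -0.88 (SE 0.30, 95% confidence interval -1.53 to -0.24, adjusted p = 0.307) in LV and -0.72 (SE 0.30, -1.36 to -0.07, adjusted p = 0.713) in RV. Ratios of mean TPM were 0.498 and 0.555. The size of the Hand2 difference rested on single WT-PLN replicates: without both WT-PLN replicate 2 samples it was -0.58 (adjusted p = 0.636) in LV and -0.38 (adjusted p = 1) in RV, and without both WT-PLN replicate 1 samples it was -1.18 (adjusted p = 0.0293, past the threshold) in LV and -0.998 (adjusted p = 0.111) in RV.

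The median log2 differences of fibroblast and of endocardial and valve markers were below 0 in R14del-PLN, with 0 genes of either list called. So were those of red cell (-0.62 in LV and -0.59 in RV) and atrial markers (-1.89 in LV and -0.09 in RV). Leukocyte (-0.17 in LV and -0.03 in RV) and epicardial markers (-0.30 in LV and -0.90 in RV) were below 0 in both ventricles as well. The median of all tested genes was -0.09 in LV and -0.0034 in RV. Ventricular cardiomyocyte and endothelial markers lay above 0 in both ventricles. Smooth muscle, conduction system and adipocyte markers lay below 0 in LV and above 0 in RV. The summed fibroblast markers (6 genes) ranged over 278 to 497 TPM in LV WT-PLN, 301 to 387 TPM in RV WT-PLN, 233 to 361 TPM in LV R14del-PLN and 271 to 375 TPM in RV R14del-PLN, and in WT-PLN they were highest in replicate 3 of each ventricle. Endocardial and valve markers (5 genes) ranged over 22.6 to 92.0, 18.2 to 32.3, 11.7 to 22.3 and 12.3 to 29.8 TPM in the same groups. In LV the sums of endocardial and valve markers did not overlap between genotypes, by a margin between 22.3 and 22.6 TPM, and in RV they did. The red cell sums overlapped in LV but not in RV, with 1461 to 1736 TPM in RV WT-PLN and 956 to 1368 TPM in RV R14del-PLN. Of single tested genes, 11.0% did not overlap in LV and 11.0% in RV, and the share among other sums was not determined. The median log2 difference of the fibroblast markers was -0.34 in LV and -0.15 in RV. That of the 5 endocardial and valve genes was -0.40 in LV and -0.52 in RV. The endocardial and valve sums were highest in replicate 3 and lowest in replicate 1 of each WT-PLN ventricle. Epicardial and pericardial markers (4 genes) had the order of Hand2 in LV WT-PLN, with replicate 2 highest, but not in RV WT-PLN, where replicate 1 was highest, and ranged over 1.82 to 4.42, 3.35 to 8.48, 1.34 to 2.78 and 0.980 to 3.48 TPM. Of each list, 0 genes were called between genotypes. The part of cell composition in the Hand2 difference was not tested.

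Gata4, the zinc finger factor that switches on many contractile protein genes, is on chromosome 14 (63198922 to 63271692, minus strand). Its level was 31.3, 25.3 and 34.1 TPM in LV WT-PLN and 29.4, 23.0 and 31.6 TPM in RV WT-PLN. In R14del-PLN it was 34.5, 35.2 and 44.6 TPM in LV and 33.8, 39.5 and 34.7 TPM in RV. Within each ventricle every R14del-PLN sample was above every WT-PLN sample, in LV by a margin between 34.1 and 34.5 TPM, and in WT-PLN replicate 2 was lowest in each ventricle. The log2 difference of Gata4 was 0.33 (SE 0.16, 95% confidence interval -0.01 to 0.66, adjusted p = 0.542) in LV and 0.36 (SE 0.16, 0.02 to 0.70, adjusted p = 0.752) in RV. Without both WT-PLN replicate 2 samples the Gata4 differences were 0.21 and 0.23, and without both WT-PLN replicate 1 samples 0.35 and 0.40, none past the threshold. With the mitochondrially encoded genes removed, the 3 LV R14del-PLN values of Gata4 were 70.8, 71.0 and 71.1 TPM, and the genotypes did not overlap over both ventricles for Gata4, Hand2 and Irx4, where 3.16% of tested genes did not overlap.

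Gata6, the close relative that overlaps Gata4 in function, is on chromosome 18 (11052064 to 11085635, plus strand) and overlaps 1010001N08Rik on the opposite strand, which has no row in the tables used here. Its level was 14.1, 15.3 and 18.2 TPM in LV WT-PLN, 15.0, 15.2 and 16.9 TPM in RV WT-PLN, 11.4, 13.8 and 14.2 TPM in LV R14del-PLN and 14.7, 15.5 and 14.0 TPM in RV R14del-PLN. The LV groups touched, since the highest R14del-PLN sample (14.2 TPM) passed the lowest WT-PLN sample (14.1 TPM), and the RV groups overlapped. The log2 difference of Gata6 was -0.25 (SE 0.13, adjusted p = 0.566) in LV and -0.09 (SE 0.13, adjusted p = 1) in RV.

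The ratio of Gata4 to Gata6 within a sample does not depend on how TPM is scaled between samples. Its values did not overlap between genotypes, but the share of other gene pairs with such ratios was not determined. Gata4 alone already did not overlap within each ventricle, so the ratio is not separate evidence. The ratio was 1.92 ± 0.287 in LV WT-PLN, 1.78 ± 0.235 in RV WT-PLN, 2.91 ± 0.315 in LV R14del-PLN and 2.44 ± 0.134 in RV R14del-PLN (SD, n = 3). All 6 R14del-PLN samples (2.29 to 3.15) were above all 6 WT-PLN samples (1.51 to 2.22). The log2 difference was 0.61 (SE 0.15) in LV and 0.46 (SE 0.12) in RV, each with p = 0.1 in a two-sided exact permutation test, the smallest that 3 against 3 samples allow, and 0.4 after adjustment over 12 ratio comparisons. Within a genotype the LV and RV values of this ratio overlapped.

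**Figure D3:**
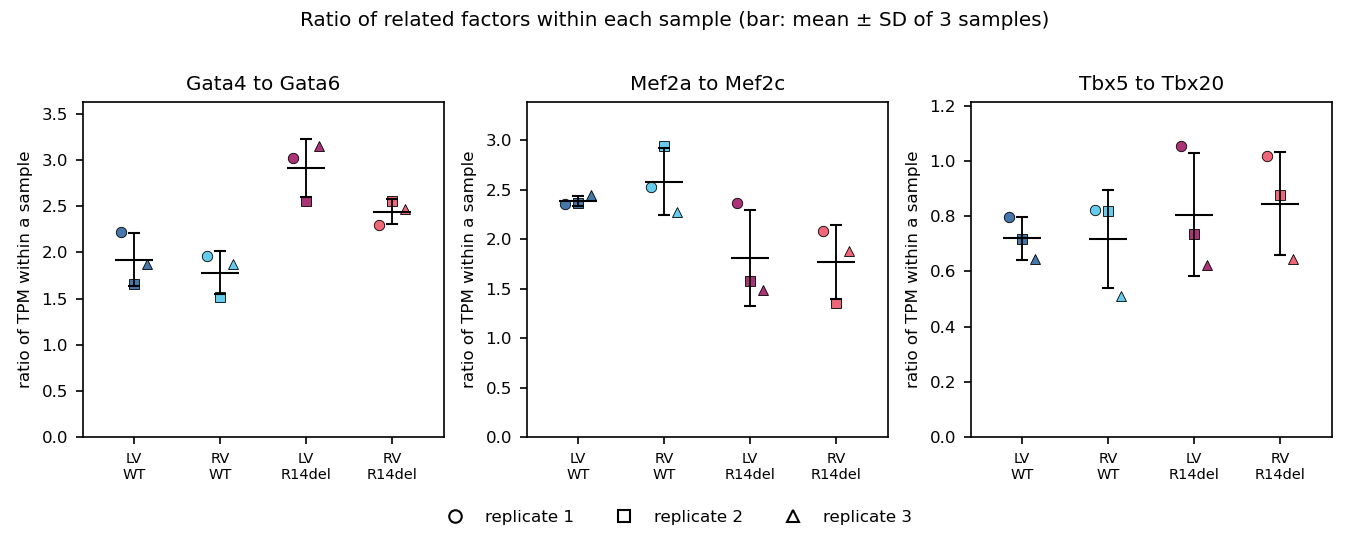
Ratio of TPM of related factors within each sample (y axis, from 0) by group (x axis), with the replicate number as symbol and the mean ± SD of 3 samples as bars. The ratio of Gata4 to Gata6 lay at 2.29 to 3.15 in R14del-PLN and 1.51 to 2.22 in WT-PLN, that of Mef2a to Mef2c overlapped between genotypes in LV but not in RV, and that of Tbx5 to Tbx20 overlapped in both ventricles.

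Mef2a and Mef2c bind the same A/T-rich element, Mef2a being the main form of adult muscle and Mef2c the one required early in heart formation. Mef2a (chromosome 7, 67231163 to 67372858, minus strand) was at 32.7, 36.9 and 42.5 TPM in LV WT-PLN, 34.5, 34.5 and 47.9 TPM in RV WT-PLN, 28.9, 30.0 and 35.1 TPM in LV R14del-PLN and 32.4, 35.7 and 32.3 TPM in RV R14del-PLN. The groups overlapped, with log2 differences of -0.24 (SE 0.15, adjusted p = 0.654) in LV and -0.20 (SE 0.15, adjusted p = 1) in RV. Mef2a values are uncertain, since Gm42857 and Gm44845 share at least 95% of their bases with it along 80% or more of the shorter transcript. Gm42857 averaged 11.6 and 12.4 TPM in LV and RV WT-PLN and 8.36 and 8.44 TPM in LV and RV R14del-PLN. Gm44845 averaged 2.55 and 2.56 TPM in LV and RV WT-PLN and 1.26 and 1.55 TPM in LV and RV R14del-PLN. Lysmd4 on the opposite strand (4.77 to 7.73 TPM) and Gm44667 and Gm44668 on the same strand overlap Mef2a.

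Mef2c (chromosome 13, 83504034 to 83667080, plus strand) was at 13.9, 15.6 and 17.3 TPM in LV WT-PLN, 13.6, 11.7 and 21.1 TPM in RV WT-PLN, 12.2, 19.0 and 23.7 TPM in LV R14del-PLN and 15.6, 26.3 and 17.2 TPM in RV R14del-PLN. Its R14del-PLN samples were widely spread, and the genotypes overlapped in each ventricle. The log2 differences of Mef2c were 0.17 (SE 0.25, adjusted p = 0.894) and 0.33 (SE 0.25, adjusted p = 1). The ratio of Mef2a to Mef2c was 2.39 ± 0.050 in LV WT-PLN, 2.58 ± 0.339 in RV WT-PLN, 1.81 ± 0.487 in LV R14del-PLN and 1.77 ± 0.373 in RV R14del-PLN (SD, n = 3). It differed between genotypes by -0.43 on the log2 scale in LV (SE 0.21, exact permutation p = 0.3) and by -0.56 in RV (SE 0.21, exact permutation p = 0.1), with adjusted values of 0.72 and 0.4. The uncertainty of the Mef2a values carries over to this ratio.

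Nkx2-5, the homeodomain factor at the head of the cardiac programme and of the conduction system, had the largest difference between ventricles on the deposited TPM scale, and its genotype means were close. It lies on chromosome 17 (26838664 to 26845009, minus strand). Its level was 24.5, 22.9 and 28.4 TPM in LV WT-PLN, 22.7, 19.8 and 20.9 TPM in RV WT-PLN, 24.6, 25.5 and 25.2 TPM in LV R14del-PLN and 24.7, 18.2 and 20.7 TPM in RV R14del-PLN. In WT-PLN the RV samples were all below the LV samples, as in 25.2% of tested genes (26.1% in either direction), and in R14del-PLN the first RV sample lay among the LV samples. The averaged RV minus LV difference of Nkx2-5 was -0.24 (SE 0.09, 95% confidence interval -0.44 to -0.05, adjusted p = 0.160).

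The median of all tested genes was itself lower in RV, at -0.12, and the Nkx2-5 difference was smaller once samples were rescaled. Under quantile normalization, equal upper quartiles or removal of mitochondrially encoded genes, which moved the median by 0.13, the Nkx2-5 difference lay between -0.09 and -0.10, smaller than those of Tbx5, Tbx20, Mef2a, Gata6 and Mef2c. Between genotypes the Nkx2-5 difference was -0.01 in LV (95% confidence interval -0.28 to 0.27) and -0.0045 in RV (-0.28 to 0.27). The genes whose centred log2 levels over the 12 samples were nearest to Nkx2-5 were Polg2, Nxf1 and Ldlrad3, with root mean square differences of 0.0635, 0.0653 and 0.0676, beside 0.166 for the spread of Nkx2-5 itself. Their mean levels were 1.56, 53.8 and 1.41 TPM. Polg2 and Ldlrad3 are thus low genes, whose changes this log2 scale understates.

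Of the other 8 tested factors, none was called between RV and LV. On the deposited scale their averaged differences lay between -0.10 (Irx4) and 0.12 (Tbx5), their adjusted p values between 0.568 and 0.937, and their LV and RV ranges overlapped in each genotype, as against 9.98% of tested genes that did not overlap in R14del-PLN. The 95% confidence interval of Hand2, the factor of the right ventricle in the embryo, ran from -0.50 to 0.42 around a difference of -0.04. Irx4 had a difference of -0.10 (-0.34 to 0.13) and Gata4 one of -0.09 (-0.33 to 0.15), and these signs turned positive for Gata4, Hand2 and Irx4 when samples were rescaled (0.05 to 0.07 for Gata4, 0.10 to 0.11 for Hand2 and 0.03 for Irx4). The other differences grew under the same 3 scalings, to 0.25 to 0.27 for Tbx5 (adjusted p = 0.135 to 0.234), 0.23 to 0.25 for Tbx20 (0.327 to 0.472), 0.21 to 0.23 for Mef2a (0.0953 to 0.227), 0.21 to 0.23 for Gata6 (0.0844 to 0.165) and 0.17 to 0.18 for Mef2c (0.545 to 0.653). On those scales 8 of the 9 factors were thus higher in RV by the sign of the difference, and none was called. The median of all tested genes lay between -0.0033 and 0.0028 there. The share of all tested genes higher in RV on those scales was not determined, so no result is drawn from this count. Endothelial markers (6 genes) summed to 106 to 131 TPM in LV WT-PLN and 79.1 to 95.6 TPM in RV WT-PLN, and to 104 to 142 and 90.3 to 120 TPM in R14del-PLN. The part of these markers in the ventricular differences was not tested. The interaction of genotype and ventricle, which asks whether the genotype difference was unlike in RV and LV, had differences of 0.00068 (Nkx2-5) to 0.18 (Irx4) with an adjusted p of 1.00 and an unadjusted p over 0.05 for all 9 factors (1.01% of tested genes were under it).

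The T-box factors did not separate any groups. Tbx5, which patterns the left ventricle and atria and the conduction system, is on chromosome 5 (119832668 to 119885219, plus strand). It was at 7.01, 6.92 and 8.44 TPM in LV WT-PLN, 7.05, 7.92 and 7.97 TPM in RV WT-PLN, 7.35, 6.63 and 8.11 TPM in LV R14del-PLN and 8.86, 10.9 and 6.50 TPM in RV R14del-PLN. The last group held both the highest and the lowest Tbx5 sample of the series. Its RV minus LV difference was 0.12 (95% confidence interval -0.13 to 0.36), and the genotype differences were -0.02 (-0.36 to 0.33) in LV and 0.15 (-0.19 to 0.49) in RV.

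Tbx20, a T-box factor that can activate or repress and that keeps adult cardiomyocytes working, is on chromosome 9 (24718138 to 24774303, minus strand). It was at 8.80, 9.63 and 13.1 TPM in LV WT-PLN, 8.58, 9.66 and 15.6 TPM in RV WT-PLN, 6.97, 9.01 and 13.0 TPM in LV R14del-PLN and 8.71, 12.4 and 10.1 TPM in RV R14del-PLN. All groups overlapped, and replicate 3 was the highest in the groups other than RV R14del-PLN. Its genotype differences were -0.13 (95% confidence interval -0.65 to 0.39) in LV and -0.08 (-0.59 to 0.44) in RV. The ratio of Tbx5 to Tbx20 lay between 0.511 and 1.05 over the samples, with exact permutation p values of 0.5 to 1 in the 4 comparisons of this ratio.

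Without both WT-PLN replicate 1 samples, the genotype differences in LV and RV were -0.33 and -0.12 for Gata6, -0.33 and -0.27 for Mef2a, 0.10 and 0.27 for Mef2c, -0.02 and 0.04 for Nkx2-5, -0.05 and 0.10 for Tbx5 and -0.24 and -0.23 for Tbx20. None of these passed the test, with adjusted p of 0.350 or more. The log2 ratio differences without the replicate 1 sample were 0.72 and 0.54 for Gata4 to Gata6, -0.44 and -0.57 for Mef2a to Mef2c and 0.21 and 0.36 for Tbx5 to Tbx20. Without RV R14del-PLN replicate 3, the sample of the other run, the RV genotype differences were 0.59 for Irx4 (adjusted p = 0.464), 0.39 for Gata4 (adjusted p = 0.890) and -0.67 for Hand2 (adjusted p = 0.934).

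Hand1, the left ventricular counterpart of Hand2 in the embryo, lies on chromosome 11 (57828705 to 57832818, minus strand). It was listed at 0 in 10 of 12 samples and at 0.0193 and 0.0172 TPM in LV WT-PLN replicates 2 and 3. Both values belong to LV, but at such a level, and with no depth known, no comparison of ventricles could be made.

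Relatives and cofactors of these factors (36 genes, 29 of them tested) gave 3 calls. These were Klf15 in each genotype comparison and Irx1 between ventricles averaged over genotypes. The list was chosen with earlier results of these data known, so its calls are not an independent yield. Of all tested genes, 0.519% were called between genotypes in LV, 0.271% in RV and 0.263% between ventricles averaged over genotypes. Klf15, a Krüppel-like factor that restrains GATA4 and MEF2 in cardiomyocytes, was lower in R14del-PLN. It was at 27.6, 31.8 and 31.7 TPM in LV WT-PLN and 14.2, 12.5 and 17.0 TPM in LV R14del-PLN, and at 29.9, 31.7 and 27.9 TPM against 17.4, 13.7 and 12.6 TPM in RV. The genotypes stood far apart in each ventricle. Klf15 fell by 1.02 on the log2 scale in LV (SE 0.14, adjusted p = 0.00553) and by 0.99 in RV (SE 0.14, adjusted p = 0.00847), and it was called in 23 of 25 and 22 of 25 alternative settings. The call of Klf15 was lost without both WT-PLN replicate 2 samples (adjusted p = 0.0636 in LV and 0.116 in RV), in RV also without RV WT-PLN replicate 2 (adjusted p = 0.0636) or RV R14del-PLN replicate 3 (adjusted p = 0.0527), and in LV with the fixed replicate block (adjusted p = 0.0591).

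Irx1, an Iroquois relative of Irx4 expressed in the ventricular septum, was lower in RV by the test. Irx1 was at 0.785, 2.25 and 3.78 TPM in LV WT-PLN, 0.445, 0.668 and 0.358 TPM in RV WT-PLN, 3.95, 1.70 and 2.45 TPM in LV R14del-PLN and 0.373, 0.673 and 1.16 TPM in RV R14del-PLN. Irx1 was lower in RV without overlap in each genotype, as were 25.2% of tested genes in WT-PLN and 8.72% in R14del-PLN. Its averaged difference was -1.05 (SE 0.22, adjusted p = 0.0495), but Irx1 was called in only 5 of 23 alternative settings, with adjusted p up to 0.180 (without both WT-PLN replicate 2 samples). Leaving out single samples ended the call of Irx1 except for LV WT-PLN replicate 1 and RV R14del-PLN replicate 2. The 4 tested Iroquois relatives all lay lower in RV, between -1.05 and -0.25, and 1 was called, whereas Irx4 had a difference of -0.10. Of the 29 tested genes of this list, 25 lay lower in RV. The difference of Irx3 was -0.25 (SE 0.27, adjusted p = 0.614). Over the list, the median was -0.12 for RV minus LV (all tested genes -0.12), -0.06 for the genotypes in LV (all -0.09) and -0.0072 in RV (all -0.0034).

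Known targets of these factors and chamber-restricted genes (32 genes, 31 tested) gave 3 calls between ventricles and 0 between genotypes. Of all tested genes, 0.263% were called between ventricles averaged over genotypes, 0.519% between genotypes in LV and 0.271% in RV. At an unadjusted limma p under 0.05, 3 list genes passed between genotypes in LV and 1 in RV, where 9.60% and 6.22% of all tested genes passed. The target list, too, was chosen with earlier results of these data known. Nppb, the gene of B-type natriuretic peptide and a target of GATA4 and NKX2-5, was at 242, 99.9 and 121 TPM in LV WT-PLN and 30.1, 34.4 and 14.2 TPM in RV WT-PLN, and at 178, 118 and 204 against 10.9, 55.0 and 59.5 TPM in R14del-PLN. Acta1, skeletal alpha-actin, was at 129, 197 and 130 against 19.2, 47.3 and 36.6 TPM in WT-PLN and at 66.4, 50.5 and 118 against 6.75, 38.3 and 30.7 TPM in R14del-PLN. Both genes were lower in RV without overlap in each genotype, as were 25.2% of tested genes in WT-PLN and 8.72% in R14del-PLN. Nppb fell by 2.37 (SE 0.38, adjusted p = 0.0233) and Acta1 fell by 1.99 (SE 0.36, adjusted p = 0.0388) from LV to RV, and they kept the call in 14 and 11 of 24 alternative settings. Leaving out any of LV or RV WT-PLN replicate 3, RV WT-PLN replicate 1, LV R14del-PLN replicates 2 and 3 or RV R14del-PLN replicate 3 ended both calls, with adjusted p up to 0.0804 for Nppb and 0.107 for Acta1, and LV WT-PLN replicate 2 or LV R14del-PLN replicate 1 ended that of Acta1 as well. Without both WT-PLN replicate 1 samples the adjusted p was 0.0928 for Nppb and 0.0956 for Acta1.

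Kcnd2, a potassium channel gene of the transient outward current that Irx5 is known to repress, was higher in RV. Kcnd2 was at 6.44, 6.61 and 5.01 against 11.9, 11.6 and 15.7 TPM in WT-PLN and at 4.84, 6.41 and 7.90 against 11.5, 10.8 and 10.6 TPM in R14del-PLN (LV against RV). All 6 RV samples lay above all 6 LV samples, as for 0.0559% of tested genes (2.91% did not overlap in either direction). Its difference was 0.86 (SE 0.12, adjusted p = 0.0200), and Kcnd2 was called in 19 of 24 alternative settings. The call of Kcnd2 was lost without LV WT-PLN replicate 3, RV WT-PLN replicate 3, LV R14del-PLN replicate 2, RV R14del-PLN replicate 3 or both WT-PLN replicate 1 samples, with adjusted p up to 0.0660.

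**Figure D4:**
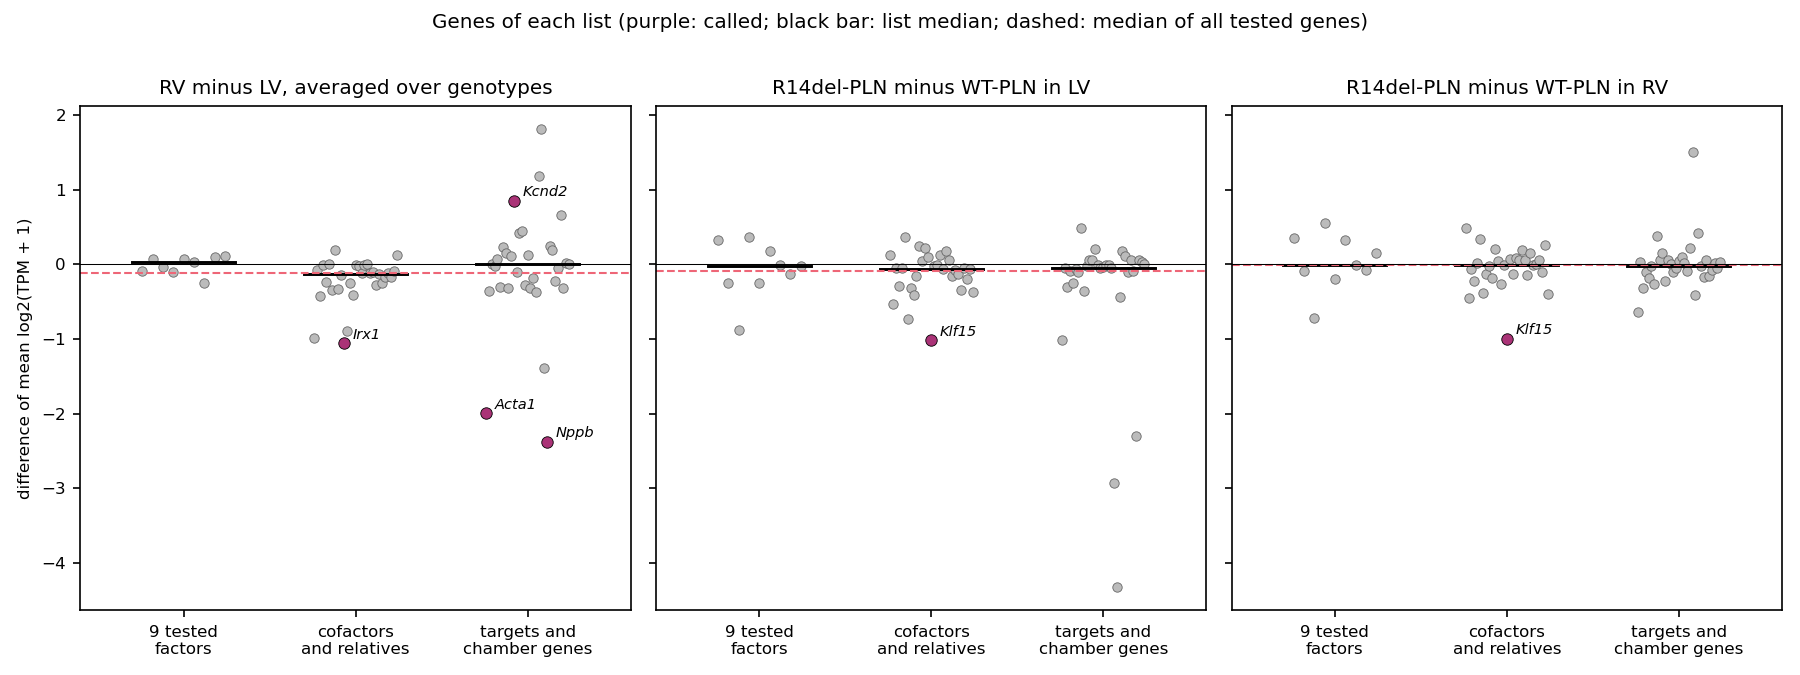
Difference of mean log2(TPM + 1) (y axis) for each tested gene of the factors, their cofactors and relatives, and their targets (x axis) in 3 comparisons, with called genes in purple and named, list medians as black bars and the median of all tested genes as a dashed line. Called genes were Irx1, Nppb, Acta1 and Kcnd2 between ventricles and Klf15 in each genotype comparison, and none was one of the 9 factors.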

How the data were processed

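RNA from flash-frozen ventricles was made into TruSeq libraries, stranded and poly(A)-selected per the methods, and mapped to GRCm38 with CLC Genomics Workbench. The authors deposited TPM per gene for each of the 12 samples, with replicates not pooled. The program, annotation and strand setting behind the TPM values are not given in the sources used here. TPM of every sample sums to 1000000, so depth is unknown and no counting interval was given.

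Groups came from the labels. A model of 4 group means was fitted to log2(TPM + 1) in limma 3.58.1 (R 4.3.3; empirical Bayes with trend, 8 residual and 5.15 prior degrees of freedom) over 12526 genes whose mean reached 0.5 TPM. Calls used the limits the study states, a 1.5-fold change and an adjusted p of 0.05. The code was tested on simulated data. Within-sample ratios were tested by exact permutation in SciPy 1.17.1. Comparisons that share a group are not independent.

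The 10 factors, the cofactor and target lists and the markers were chosen with earlier results of these data known. All 10 factors are named, and of the lists each called gene. For likeness, the 3 genes nearest to the factor with the largest averaged ventricular difference are named. Locations are from GENCODE M21 and promoters from RefSeq, which held 6 of the 10 factors with chromosome 18 left out. Kept as alternatives were other pseudocounts (0.5 and 0.1), filters, scalings, a fit without trend, replicate blocks, only the groups compared, and samples left out. Leaving out both WT-PLN replicate 2 samples was added after the data were seen.

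As a check on pairing, deviations from group means were correlated between LV and RV samples of one number. They correlated at 0.321 to 0.657 in WT-PLN and at 0.0542 to 0.389 in R14del-PLN. Between LV and RV samples of other numbers the correlations were -0.457 to 0.000824 in WT-PLN and -0.396 to 0.160 in R14del-PLN. The same-number values thus lay above all others in WT-PLN, whereas the ranges overlapped in R14del-PLN. Samples agreed best with their own number in 6 of 6 cases in WT-PLN and 4 of 6 in R14del-PLN. This is a hint from the data and not the design.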

Additional observations from a re-analysis of the deposited data

How the results depend on the processing

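No factor was called in the main analysis, and this count changed under 2 alternatives only: 1 factor (Hand2, -1.18, adjusted p = 0.0293) was called between genotypes in LV without both WT-PLN replicate 1 samples, and 1 factor (Irx4, 0.63, adjusted p = 0.0478) in RV without mitochondrially encoded genes. Over all alternatives the Irx4 difference lay between 0.26 and 0.48 in LV and 0.42 and 0.65 in RV, that of Hand2 between -1.18 and -0.58 in LV and -0.998 and -0.38 in RV, that of Gata4 between 0.21 and 0.44 in LV and 0.23 and 0.45 in RV, and that of Nkx2-5 (RV minus LV) between -0.30 and -0.09. The causes were not tested.

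With the replicate number as a fixed replicate block, adjusted p was 0.163 and 0.227 for Hand2, 0.151 and 0.346 for Irx4 and 0.216 and 0.768 for Gata4 in LV and RV, and no factor gained or lost a call. The fixed replicate block moved the count over all genes from 0 to 12 for RV against LV in WT-PLN, from 33 to 95 averaged, from 65 to 30 between genotypes in LV and from 34 to 85 in RV. The number agreed best with its own partner in 10 of 12 LV and RV samples, as a hint from the data and not the design. Between genotypes the samples share only a number.

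Scaling changed the balance of calls over all genes. RV against LV averaged had 7 higher and 26 lower, but 15 and 8 under quantile normalization, 15 and 12 with equal upper quartiles and 13 and 7 without mitochondrially encoded genes. Between genotypes, 12 higher and 53 lower in LV became 39 and 65 under quantile normalization and 35 and 64 with equal upper quartiles, and 9 and 25 in RV became 30 and 42 without mitochondrially encoded genes. Leaving samples out also moved counts: between genotypes, 230 genes were called in LV without both WT-PLN replicate 1 samples and 19 without both WT-PLN replicate 2 samples, and 0 averaged over genotypes without LV WT-PLN replicate 3. TPM keep no depth, so the precision of low genes such as Hand1 and Irx1 is not known.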
